A study of Mus musculus with 2 samples.

Results

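The B cells of the WT islet preparation were 146 barcodes of a single droplet library, out of 4628 WT barcodes that passed the quality limits and 8897 in both libraries. A barcode passed with more than 1000 genes, fewer than 50000 unique molecular identifiers (UMIs, each a tag on one captured transcript molecule), a mitochondrial share under 10% and a haemoglobin share of at most 0.1%. Such a barcode was counted as a B cell when at least 3 of the 6 genes *Cd79a*, *Cd79b*, *Ms4a1*, *Ighm*, *Igkc* and *Ly6d* had a UMI, when *Ins1* with *Ins2*, *Gcg*, *Sst* and *Ppy* with *Pyy* each held under 10% of its UMIs, and when fewer than 3 of the T cell genes *Cd3d*, *Cd3e*, *Cd3g*, *Trbc2* and *Trac* had a UMI. The values of these genes therefore chose the members and are given as a description, without a test.

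The study set wild type (WT) islets beside islets that lack *Npc1*, the gene of the lysosomal cholesterol transporter, in mice aged 2 weeks on a C57BL/6J background. Each genotype was 1 library made with 10x Genomics 3′ reagents, and per the labels each library held the pooled islets of 3 female mice. The *Npc1*-/- mice came from matings of *Npc1*+/- mice, their WT littermates were the controls, and islets were freed with collagenase P and dispersed with trypsin before loading. No sort for blood cells was described, and the pooled mice cannot be told apart in the counts. The WT library held 8569 deposited barcodes with 114324626 UMIs and the *Npc1*-/- library 7646 with 127122035. Of all barcode sequences 12 occurred in both libraries, and 0 of these belonged to a member. With 1 library per genotype and cells that are not replicates, no p-value is given, and each 95% interval covers counting error only. Intervals of summed UMIs are exact Poisson limits, those of shares are Clopper-Pearson limits, and those of ratios come from the binomial split of the 2 sums.

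B cells make antibodies. Each carries a B cell receptor, which is a membrane antibody of 2 heavy and 2 light chains held by the signalling pair CD79A and CD79B, and the light chain is either of the kappa or of the lambda type. Newly made B cells leave the bone marrow as transitional cells with IgM, mature into follicular or marginal zone cells that also carry IgD in varying amounts, and can later enter germinal centres or become antibody-secreting plasma cells. They also present antigen on MHC class II, and within islets the resident macrophage is the better known blood cell.

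The light chain results below rest on 3 lambda constant genes that resemble each other, so the start of their constant exons is shown first. *Iglc1* (ENSMUSG00000105906), *Iglc2* (ENSMUSG00000076937) and *Iglc3* (ENSMUSG00000105547) lie on the minus strand of chromosome 16. The stretches of 90 coding bases below, written 5′ to 3′ from GENCODE transcripts, come from GRCm38 chr16:19061980-19062069 for *Iglc1*, chr16:19198761-19198850 for *Iglc2* and chr16:19065590-19065679 for *Iglc3*. Capitals mark the 21 positions at which the 3 genes are not all the same.
Iglc1: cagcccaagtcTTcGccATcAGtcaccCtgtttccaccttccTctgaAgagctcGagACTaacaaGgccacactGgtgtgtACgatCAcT
Iglc2: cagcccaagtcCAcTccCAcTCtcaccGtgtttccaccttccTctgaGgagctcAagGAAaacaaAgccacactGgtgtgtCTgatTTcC
Iglc3: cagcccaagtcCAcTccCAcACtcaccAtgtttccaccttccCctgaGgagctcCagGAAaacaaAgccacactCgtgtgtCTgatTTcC
*Iglc2* and *Iglc3* were identical at 85 of these 90 positions, against 71 for *Iglc1* with *Iglc2* and 70 for *Iglc1* with *Iglc3*. Over their whole aligned transcripts *Iglc2* and *Iglc3* were 94.3% identical. How the counting step divided reads between such copies is not given in the sources used here, so the split between *Iglc2* and *Iglc3* is uncertain. Whether the sum of the 3 genes is affected too cannot be checked from the counts.

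*Vpreb3*, which encodes a small protein that binds newly made antibody chains inside B cells, had the highest ratio to the other WT barcodes among the 2383 genes with at least 50 CPM and a UMI in at least 20% of members, and its upstream window is shown because it alone of the 20 genes with the highest ratios held an octamer. The 250 bases before its RefSeq start (GRCm38.p6, chr10:75948050-75948299, plus strand) hold the octamer, the motif that Oct factors bind, once, in capitals.
Vpreb3 upstream: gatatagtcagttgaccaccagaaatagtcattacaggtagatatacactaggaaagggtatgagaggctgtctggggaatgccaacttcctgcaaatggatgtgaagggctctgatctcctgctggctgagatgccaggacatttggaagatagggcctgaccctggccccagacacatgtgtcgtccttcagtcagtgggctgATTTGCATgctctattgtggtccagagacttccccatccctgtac
The motif ran from base 45 to base 38 before the start. The search used ATGCAAAT and its reverse complement ATTTGCAT on both strands. Of 32851 RefSeq windows of the same length 526 held it (1.60%). Of the 20 genes with the highest ratios 12 had a window, and 1 of these, that of *Vpreb3*, held it. A match describes these letters and is not evidence of binding.

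Among the kept WT barcodes the 146 B cells made up 3.15% (2.67 to 3.70). By similar rules for each class, 66 WT barcodes were T cells (1.43%), 48 macrophages (1.04%), 443 endothelial cells (9.57%) and 1839 insulin-rich cells (39.7%). B cells by rule thus outnumbered T cells and macrophages together. The rules were not symmetric. Barcodes with at least 3 B cell markers were left out of the T cells, macrophages and endothelial cells. The B cell rule set no limit on macrophage or endothelial markers. The members were small barcodes. They held 2303 to 29620 UMIs with a median of 4258, and 1027 to 5187 genes with a median of 1496.5, whereas the median was 5439.5 UMIs in T cells, 11137 in macrophages, 7837 in endothelial cells and 30417 in insulin-rich cells. Their mitochondrial share ran from 2.08% to 9.86% with a median of 6.36%. The limits on genes and on mitochondrial UMIs therefore lay at the edge of the range of these cells. The WT number was 22 when the mitochondrial limit was 5%.

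Just inside the limits the smallest member had 1027 genes and the highest mitochondrial share was 9.86%. Just outside were 7 barcodes that failed the gene limit alone, the nearest with 995 genes, and 6 that failed the mitochondrial limit alone, the nearest at 10.1%. The hormone limit of 10% lay in an empty zone, with the highest member at 7.39% and the nearest of 8 excluded barcodes at 17.3%. Of the members 129 had a UMI of all 6 markers, 14 of 5, none of 4, and 3 of 3. A further 19 kept WT barcodes had exactly 2 markers and were left out. All 19 had an *Ighm* UMI and 17 a *Cd79b* UMI, but 0 had *Igkc* or *Cd79a*, and 14 of the 19 had at least 3 of 6 macrophage markers.

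The label was checked against genes that the rule did not use. A UMI of *Pax5*, the factor that fixes B cell identity, was found in 84 of 146 members (57.5%), of *Bank1*, a scaffold of receptor signalling, in 115 (78.8%), and of *Ebf1*, a factor that specifies B cells, in 135 (92.5%). The other 4482 kept WT barcodes held 12 *Pax5*, 17 *Bank1* and 3063 *Ebf1* UMIs, so *Ebf1* alone does not check the label. As a description of genes that the rule did use, *Cd3e*, *Cd3g* and *Trac* were at 0 in all members, *Trbc2* had 4 UMIs and *Cd3d* 1. By markers of other cells or by *Jchain*, 6 members stood apart. Members m063 and m081 had 5 and 6 macrophage markers, with 116 and 75 UMIs of the complement gene *C1qa*. Both had UMIs of *Siglech*, a receptor typical of plasmacytoid dendritic cells, and so had m121, with 18 *Siglech*, 55 *Irf8* and 115 *Ly6d* UMIs and no *Igkc*. These 3 were the members with only 3 B cell markers. Members m064 and m107 had all 6 endothelial markers, with 71 and 72 UMIs of the capillary gene *Plvap*. The sixth, m111, had 529 UMIs of *Jchain*, the joining chain of secreted IgM. In the whole marker lists, 8 of 8 macrophage genes had a UMI, led by *C1qa*, in 9 members, and 6 of 6 endothelial genes, led by *Plvap*, in 61 members, most of them through *Pecam1*, which 38.4% of members carried. Leaving the 6 out lowered *C1qa* from 227 to 5.38 CPM and *Plvap* from 170 to 4.03 CPM, where CPM is UMIs per 1e6 UMIs summed over all cells of a class. Scrublet, a caller of barcodes with 2 cells, marked 1 of the 146 members, m111, and the other 5 were not tested further.

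The UMIs of the 6 rule genes per member are given as lowest, median and highest. *Cd79a* had 0, 15 and 84 UMIs, and *Cd79b*, its partner, 1, 11 and 64. *Ms4a1* had 0, 5 and 35. *Ighm*, the constant gene of the IgM heavy chain, had 2, 16 and 1876. *Igkc*, the kappa constant gene, had 0, 39.5 and 5683, and *Ly6d*, a surface protein found early in the B lineage and kept later, 0, 10 and 115. The highest *Ighm* and *Igkc* values were both those of m111. Without the 6 members the highest values were 146 for *Ighm* and 382 for *Igkc*, so that the other 140 spanned a narrower range.

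**Figure D1:**
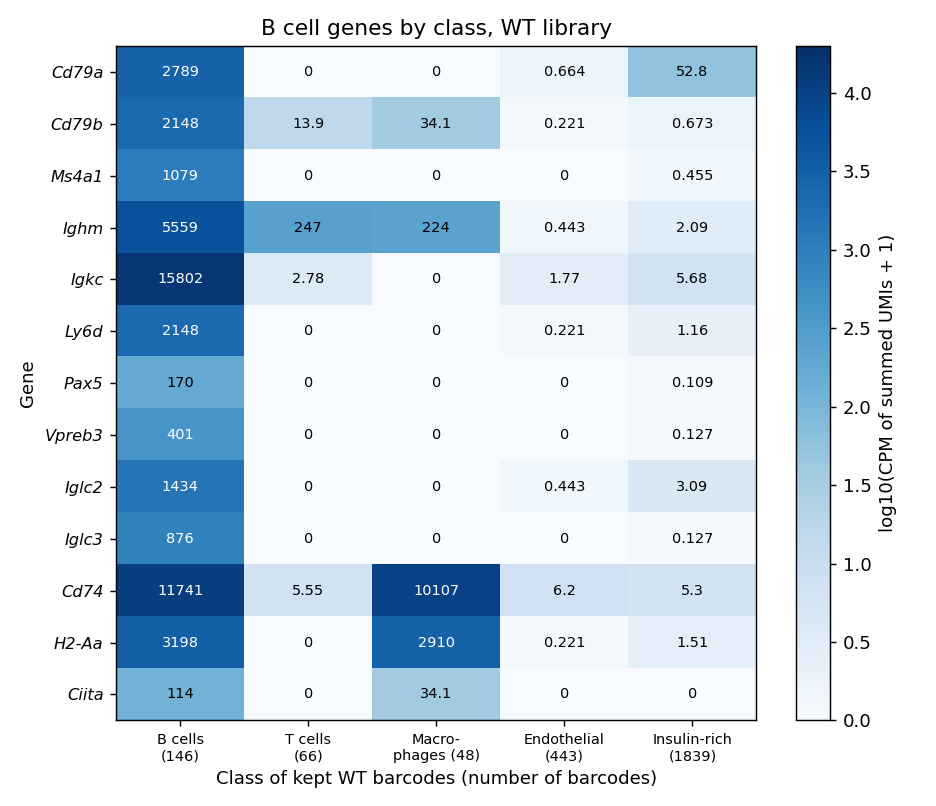
Levels of 13 B cell genes in classes of kept WT barcodes, as CPM of the summed UMIs (printed in each cell, coloured by log10 of CPM + 1). The 6 rule genes (upper rows) and *Pax5*, *Vpreb3*, *Iglc2* and *Iglc3* were highest in the B cells, *Ighm* also reached 247 CPM in T cells and 224 CPM in macrophages, *Cd79a* reached 52.8 CPM in insulin-rich cells, and *Cd74* and *H2-Aa* had 10107 and 2910 CPM in macrophages and 11741 and 3198 CPM in B cells, where summed counts do not show the spread over barcodes.

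Against the other 4482 kept WT barcodes, 6401 genes had at least 20 CPM on either side. Hormone transcripts took 45.9% of the UMIs of those barcodes and 3.42% of those of the B cells, and the median gene stood 1.37 times higher in B cells (0.45 on the log2 scale). With totals that leave out the hormone genes the median log2 ratio was -0.38, so ratios to these barcodes are given relative to the median gene, whose value is then 1. On this scale, after 0.5 counts were added to each sum, 616 genes (9.62%) were at least 4 times higher in B cells and 784 (12.2%) at least 4 times lower. Before this correction the counts were 817 (12.8%) higher and 602 (9.4%) lower, and with totals that leave out the hormone genes 523 and 1447. Because the members were chosen by 6 of these genes in these cells, the ratios describe the class and test nothing. Of the 616 genes 542 reached 20 CPM in the B cells alone, so that the level filter had already placed them higher in CPM there. For the gene lists below, the number of genes tested through the B cells alone in this way is therefore given in place of a count or a median of ratios to these barcodes. Over all genes 1649 of the 6401 (25.8%) were tested through the B cells alone, against 17.4% of 6039 in the comparison with T cells and 18.6% of 6237 in that with macrophages.

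Of the 20 genes with the highest ratios 4, *Igkc*, *Cd79b*, *Ms4a1* and *Ighm*, had chosen the members. *Vpreb3* (ENSMUSG00000000903, chromosome 10, 75943057 to 75949657) had 345 UMIs, or 401 CPM (360 to 446), in 65.8% of members and 0.118 CPM in the other barcodes. *Bank1* (ENSMUSG00000037922, chromosome 3, 136053363 to 136326066) had 292 CPM against 0.182 CPM. *Fcrla* and *Fcrl1*, members of the Fc receptor-like family of B cells, had 313 and 87.2 CPM against 0.257 and 0.129 CPM. *Pou2af1*, the coactivator of Oct factors at antibody genes, had 183 CPM against 0.193 CPM, and *Tnfrsf13c*, the receptor for the survival factor BAFF, 289 CPM against 0.354 CPM. *Bfsp2* (ENSMUSG00000032556, chromosome 9, 103424924 to 103480420), an intermediate filament gene known from the eye lens, had 94.2 CPM (74.8 to 117) in 25.3% of members and 0.0429 CPM elsewhere. The gene models *Gm30211* and *Gm31243* were also on the list with 84.9 and 124 CPM. *Gm30211* spans *Igkc* on the same strand (chromosome 6, 70719074 to 70740554, around *Igkc* at 70726435 to 70726966), so the reads of this pair cannot be fully told apart. *Gm31243* overlaps *Bank1* on the other strand (chromosome 3, 135904344 to 136167184), and how well strand separated their reads was not tested.

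Of 20 genes of B cell receptor signalling 19 were tested against the other WT barcodes, 14 of them through the B cells alone. *Cd79a* and *Cd79b* are of this list and chose the members. *Cd79a* (ENSMUSG00000003379, chromosome 7, 24897381 to 24902197) had 2789 CPM (2678 to 2903) and *Cd79b* (ENSMUSG00000040592, chromosome 11, 106311341 to 106314762) 2148 CPM (2051 to 2248). The kinases that act first in the chain were found in about equal shares of members, with *Lyn* at 177 CPM in 53.4%, *Blk* at 138 CPM in 48.6% and *Syk* at 142 CPM in 52.7%. *Btk*, the kinase whose loss stops human B cell development, had 66.3 CPM, and the adaptor *Blnk* 221 CPM. *Cd81*, a tetraspanin of the receptor complex, was not set apart, with 336 CPM in B cells and 298 CPM in the other barcodes.

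The inhibitors of the receptor were present beside it. Of 10 genes of this list 7 were tested against the other barcodes, all 7 through the B cells alone. *Siglecg*, a sialic acid receptor that dampens the signal, had 322 CPM in 76.7% of members, *Ptpn6*, the phosphatase SHP-1, 457 CPM in 84.2%, and *Cd22* 102 CPM in 41.1%. Against the WT macrophages the level filter fixed the direction of each call, so the calls describe the genes and show no split of the list. Of 8 tested genes 2, *Siglecg* and *Cd22*, were at least 4 times higher in B cells, both tested through the B cells alone, and 1, the collagen receptor *Lair1*, was at least 4 times lower at 19.8 against 248 CPM and tested through the macrophages alone. In that comparison 5.95% of 6237 genes were at least 4 times higher and 8.16% at least 4 times lower. Without the 6 members that stood apart these shares were 5.54% and 10.7%.

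Of 17 transcription factors of the lineage 16 were tested against the other barcodes, 10 of them through the B cells alone. *Ebf1*, which with *Pax5* specifies B cells, had 586 CPM in 92.5% of members, but also 32.9 CPM in the other barcodes. *Pax5* had 170 CPM against 0.129 CPM, *Spib* 177 CPM against 0.461 CPM and *Pou2f2*, the gene of Oct-2, 437 CPM against 1.57 CPM. *Spi1*, the factor PU.1 shared with myeloid cells, had 165 CPM in B cells and 535 CPM in macrophages, a ratio of 0.309 (0.251 to 0.378). Of its B cell UMIs 3 members held 26.8%. When CPM was taken in each barcode, its median was 0 in B cells and 559 in macrophages. *Irf4*, which acts in activated and antibody-secreting cells, had 8 UMIs in all members together. Of the 28 genes of the broader identity list 25 were tested through the B cells alone against the other barcodes, and 21 against the WT T cells. The tetraspanin gene *Cd53*, a marker of all leukocytes, was not set apart from T cells, with 431 CPM in B cells and 386 CPM in T cells.

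Kappa transcripts exceeded lambda transcripts in most members, and most members carried both. *Igkc* (ENSMUSG00000076609, chromosome 6, 70726435 to 70726966) had 13594 UMIs, and the 3 lambda genes 2959 UMIs together. In UMIs, *Igkc* thus made up 82.1% of light chain constant transcripts, or 73.9% without the 6 members that stood apart. By member, the *Igkc* share was at least 80% in 51 (34.9%, 27.2 to 43.3), at most 20% in 7 (4.79%, 1.95 to 9.63) and between these limits in 88 (60.3%, 51.9 to 68.3). The median share was 75.5%. Both types had a UMI in 137 members, and all 3 lambda genes in 95 (65.1%). In the single members the lambda sum had a median of 14.5 UMIs. The share of members between the limits was 62.1% without the 6 members, and 82.9% when the limits were 90% and 10%.

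The lambda UMIs did not appear in the T cells and macrophages of the library. *Iglc1*, *Iglc2* and *Iglc3* had 0 UMIs in the 66 T cells and in the 48 macrophages, where 3 counts would be 8.33 and 5.39 CPM, while the B cells had 1129, 1434 and 876 CPM. In WT endothelial cells *Iglc2* had 2 UMIs (0.443 CPM) and *Iglc3* 0, and in the 1839 WT insulin-rich cells *Iglc2* had 170 UMIs (3.09 CPM) and *Iglc3* 7 (0.127 CPM). Only 0.381% of these insulin-rich cells had an *Iglc2* UMI, so a few barcodes carried this value. What UMIs of both types in 1 member stand for was not tested. The variable segments, which would tell the rearranged chains apart, had only 36 (*Ighv*), 40 (*Igkv*) and 18 (*Iglv*) UMIs in all members.

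The 7 members at the lambda end had 0 *Igkc* UMIs, and no member lay between 10% and 20%. They led with different lambda genes. Members m032 and m101 had 83 and 75 *Iglc1* UMIs with 25 and 3 of *Iglc2*, and m034 and m097 had 43 and 111 *Iglc2* UMIs with 3 of *Iglc1* in each. Member m146 had 26 *Iglc2*, 18 *Iglc3* and 0 *Iglc1* UMIs. The other two were m064, which carried the endothelial markers, and m121, which had *Siglech* and 7 *Iglc3* UMIs as its only light chain transcripts. Without these the lambda end held 3.57% of 140 members.

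**Figure D2:**
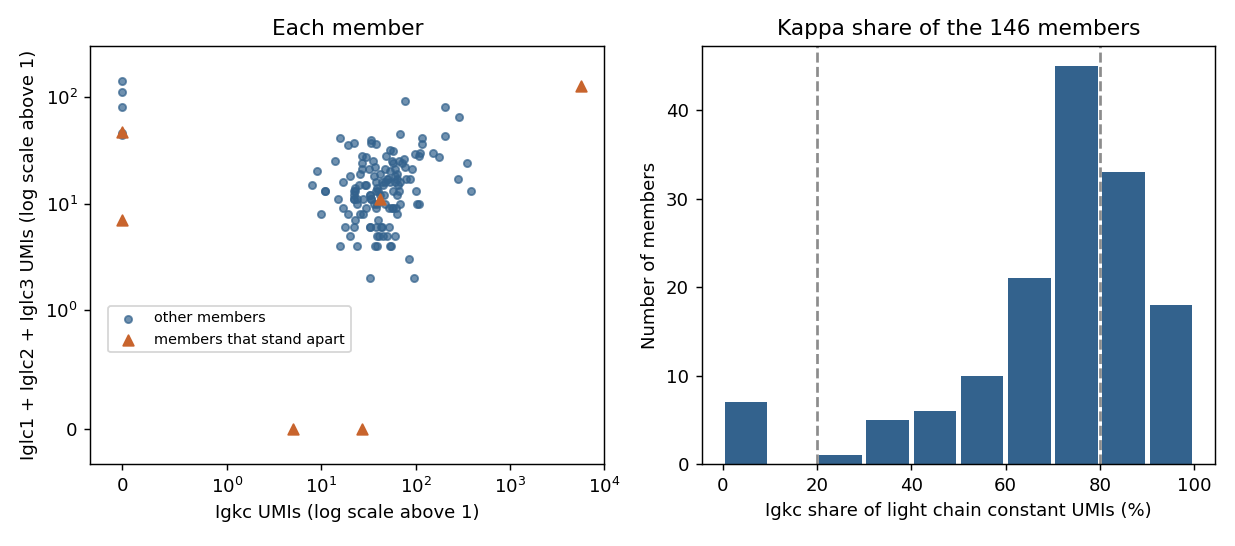
Light chain constant transcripts in the 146 members. Left, *Igkc* UMIs against the sum of *Iglc1*, *Iglc2* and *Iglc3* UMIs (both axes logarithmic above 1), with the 6 members that stood apart as triangles; right, the number of members by *Igkc* share of these UMIs, with dashed lines at 20% and 80%, showing 7 members under 10%, none from 10% to 20% and the most, 45, from 70% to 80%.

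Heavy chain transcripts were almost all of the unswitched classes. *Ighm* (ENSMUSG00000076617, chromosome 12, 113418558 to 113422730) had 4782 UMIs and was found in every member, and *Ighd*, the IgD constant gene beside it, had 334 UMIs in 71.2% of members. The switched classes were rare. *Ighg1* had 21 UMIs, *Ighg3* 7, *Igha* 6 and *Ighg2b* 2, while *Ighg2c* and *Ighe* had 0. A UMI of a switched class was found in 15 members (10.3%, 5.87 to 16.4), at least 2 such UMIs in 7 (4.79%). The single member m111 held 39.2% of all *Ighm* and 41.8% of all *Igkc* UMIs. Without the 6 members *Ighm* fell from 5559 to 3806 CPM and *Igkc* from 15802 to 10536 CPM, and *Ighd* stood at 448 CPM in place of 388 CPM.

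By stage, the members carried few UMIs of genes of early precursors. *Rag1* and *Rag2*, the recombinase that assembles antibody genes, *Dntt*, the surrogate light chain genes *Vpreb1*, *Vpreb2* and *Igll1*, and *Kit* all had 0 UMIs in the 860262 UMIs of the members, where 3 counts would be 3.49 CPM. The other 5 of the 12 genes of the early list had 27 UMIs in 16 members, led by the cytokine receptor gene *Flt3* with 13 UMIs in 9 members. Of 10 genes of the follicular list all were tested against the other barcodes, 9 of them through the B cells alone. All genes of the follicular, transitional, germinal centre and plasma cell lists had a UMI in some member, so that presence of a UMI did not set a stage apart. *Fcmr*, the IgM Fc receptor, had 478 CPM in 72.6% of members, *Fcer2a*, the low-affinity IgE receptor CD23, 252 CPM in 55.5%, *Cr2*, the complement receptor CD21, 65.1 CPM in 23.3%, and *Cxcr5*, the receptor that guides B cells to follicles, 79.0 CPM in 30.8%.

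Of 10 genes of the transitional list 9 were tested against the other barcodes, 5 of them through the B cells alone. *Vpreb3* was found in 96 members, and *Cd24a*, which falls as B cells mature, had 232 CPM in 47.9%. *Cd93*, the marker most used for transitional cells in mice, was found in 13 members (8.90%), and in 11 when the 2 members with endothelial markers were left out. It is a gene that capillaries also express. *Vpreb3* and *Fcer2a* were found together in 54 members (37.0%), and *Ighd* with *Fcer2a* in 68 (46.6%). In 29 members (19.9%) neither *Ighd* nor *Fcer2a* had a UMI. At a median of 4258 UMIs a member can carry such a gene without a UMI of it.

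Of 13 genes of marginal zone and B1 cells 5 reached the level for testing against the other barcodes, 3 of them through the B cells alone. *Mzb1*, a chaperone of antibody assembly that is not confined to marginal zone cells, had 766 CPM in 87.7% of members, while *Dtx1*, which acts in Notch signalling, had 24.4 CPM. *Cd9* had 32.5 CPM in B cells and 48.7 CPM in the other barcodes. *Cd5*, the marker of B1a cells, had 4 UMIs in 4 members, and *S1pr3* had 0 UMIs.

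**Figure D3:**
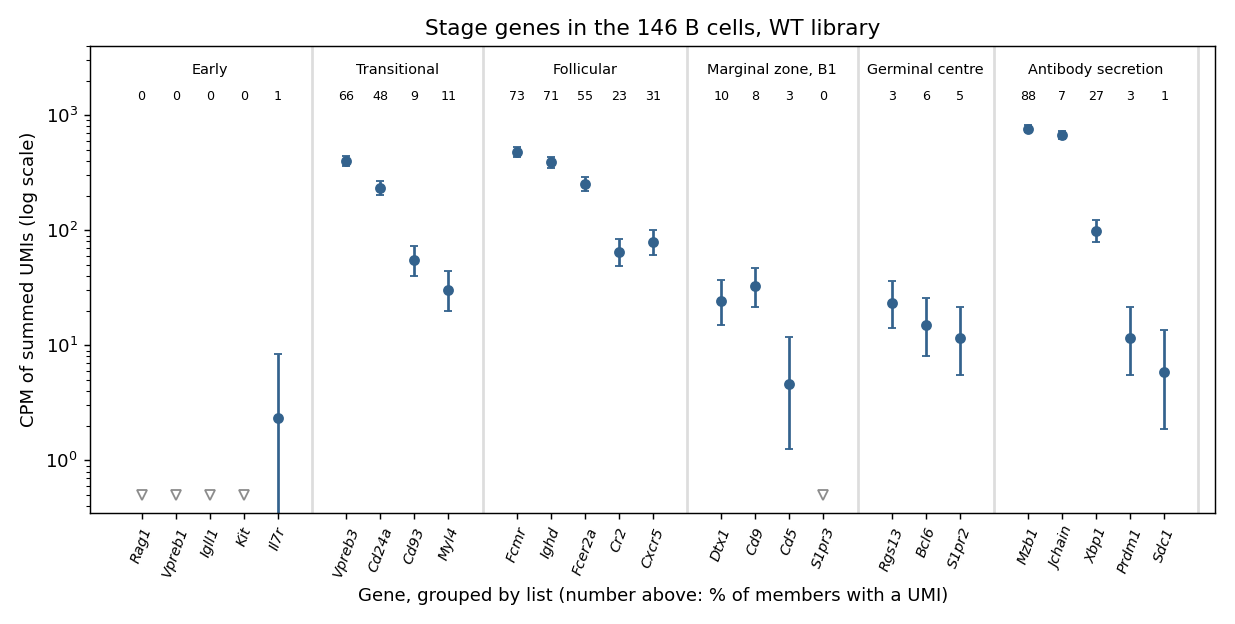
CPM (log scale) of genes of 6 stage lists in the summed 146 members, with exact 95% Poisson intervals. Open triangles mark genes with 0 UMIs, drawn at 0.5, and the numbers above give the percentage of members with a UMI. The follicular genes and *Vpreb3* lay above the germinal centre genes, and *Rag1*, *Vpreb1*, *Igll1*, *Kit* and *S1pr3* had 0 UMIs.

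A few members with many UMIs carried cell cycle genes, and some of these carried germinal centre genes. At least 5 of 17 cell cycle genes had a UMI in 12 members (8.22%, 4.32 to 13.9), which held 8741 to 29620 UMIs, and no cycle gene in 95 (65.1%), which held a median of 3908 UMIs. The members with cycle genes were thus also the deeper ones, and the part of depth in these counts was not tested. Without the members that stood apart 9 remained. *Rgs13*, a regulator of chemokine signals in germinal centre B cells, had 20 UMIs in 4 members, 3 of them among the 12. Members m125 and m141 had 6 *Rgs13* UMIs each, with 19 and 17 UMIs of the division marker *Mki67*, and m104 had 7 *Rgs13* UMIs. *Jchain* had 11, 4 and 11 UMIs in m125, m141 and m104. *Bcl6*, the master factor of germinal centres, had 13 UMIs over 6.16% of members, and *S1pr2* 10 UMIs over 5.48%. Member m092, with the most *Vpreb3* (54 UMIs) and *Igkc* (382 UMIs) of these 12, had 16 cycle genes and no *Rgs13*.

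Of the plasma cell genes, *Jchain* came mostly from 1 member. *Jchain* had 584 UMIs, of which m111 held 529 (90.6%), and the next highest members had 12 and 11. Member m111 had 16271 UMIs but only 2015 genes, with 5683 *Igkc*, 1876 *Ighm*, 47 *Mzb1*, 12 *Xbp1*, 4 *Sdc1*, 2 *Prdm1* and 2 *Tnfrsf17* UMIs, the last 4 being genes of the antibody-secreting programme. It had 0 *Pax5* and 0 *Ighd* UMIs, 3 *Ms4a1* UMIs and 61 *Cd74* UMIs, against a median of 57 for *Cd74* in all members. Without the 6 members that stood apart *Jchain* stood at 73.9 CPM in place of 679 CPM. Of 4 tested genes of the list 2, *Mzb1* and *Jchain*, were tested through the B cells alone, and 1, *Fkbp11*, was at least 4 times lower than in the other barcodes relative to the median gene, where 12.2% of all genes were. *Xbp1* had 98.8 CPM in B cells against 117 CPM in the other barcodes. Of its 85 UMIs in B cells, m111, m063 and m081, which stood apart, held 32.9%.

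MHC class II genes were high in the summed counts of B cells and macrophages and low in T cells. All 10 genes of the list were tested, 6 of them through the B cells alone against the other barcodes, 9 against T cells and 1 against macrophages. In T cells *Cd74* stood at 5.55 CPM, and *H2-Aa* and *H2-Eb1* had 0 UMIs. Against macrophages 3 of 10 were at least 4 times higher and none was at least 4 times lower, where 5.95% and 8.16% of all genes were, and the list median was 1.13 where that of all genes was 1.03. *Cd74*, the invariant chain, had 1, 57 and 440 UMIs as lowest, median and highest member, and 11741 CPM (11513 to 11972) in B cells against 10107 CPM in macrophages, a ratio of 1.16 (1.12 to 1.20). *H2-Aa*, *H2-Ab1* and *H2-Eb1*, the chains of the presenting molecules, had ratios to macrophages of 1.10 (1.03 to 1.17), 0.941 (lower limit 0.885, upper limit just above 1) and 1.09 (1.02 to 1.17). These are ratios of summed counts, and single macrophages were spread more widely. When CPM was taken in each barcode, the median for *Cd74* was 13475 in B cells and 7755 in macrophages, and for *H2-Aa* 3509 and 1138. After thinning to 2000 UMIs *H2-Aa* had a UMI in 90.4% of B cells and in 68.8% of macrophages. For *H2-Ab1* the medians were 3356 and 1030 CPM, and for *H2-Eb1* 3146 and 903 CPM. Some genes of peptide loading differed more, but not all. *H2-Oa* and *H2-Ob*, which form the inhibitor of the loading factor H2-DM and are typical of B cells, had 223 and 242 CPM in B cells against 41.3 and 1.80 CPM in macrophages. For H2-DM itself, the chain gene *H2-DMa* had 489 CPM in B cells against 596 CPM in macrophages, a ratio of 0.821. The chain gene *H2-DMb2* had 319 CPM in B cells against 32.3 CPM in macrophages, of which 1 barcode held 77.8%. Its near copy *H2-DMb1* had 68.6 against 255 CPM, a ratio of 0.270 (0.195 to 0.367). Reads of these copies may be divided unevenly in the counting. *Ciita*, the master activator of class II genes, had 114 CPM against 34.1 CPM.

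Of 9 tested MHC class I genes none was at least 4 times higher in B cells than in T cells and 1, the class I activator *Nlrc5* with 3 UMIs, was at least 4 times lower and tested through the T cells alone. Of 6039 genes tested against T cells 6.79% were higher and 4.02% lower by that amount. Against macrophages none of 8 was past this limit in either direction, where 5.95% of all genes were higher and 8.16% lower. *B2m*, the shared light chain of class I, had 838 CPM in B cells, 1438 CPM in T cells and 1810 CPM in macrophages. The ratio of these summed counts to T cells was 0.583 (0.520 to 0.654), but 3 members held 28.0% of the B cell UMIs. When CPM was taken in each barcode, the median for *B2m* was 588 in B cells, 1300 in T cells and 1715 in macrophages.

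All 13 receptors for homing and circulation were tested against the other barcodes through the B cells alone, with a summed 768 UMIs in 141 members. Against T cells 3 of 13 were at least 4 times higher, namely *Cxcr5*, *Ccr6* (53.5 CPM, with 0 UMIs in T cells) and *Cd44* (75.6 against 16.7 CPM), all 3 tested through the B cells alone. In the same comparison 3 were at least 4 times lower, all of them integrin chains of leukocyte adhesion, with *Itgal* at 24.4 against 117 CPM, *Itgb7* at 51.1 against 228 CPM and *Itgb2* at 31.4 against 167 CPM. Of all genes tested against T cells 6.79% were higher and 4.02% lower by that amount. *Ccr7*, which guides cells into lymph nodes, had 77.9 CPM in B cells against 225 CPM in T cells. *S1pr1*, the receptor by which lymphocytes leave tissue, had 86.0 CPM against 142 CPM. *Klf2*, the factor that drives *S1pr1*, had 646 CPM in B cells and 658 CPM in T cells, a ratio of 0.981 (0.842 to 1.15).

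**Figure D4:**
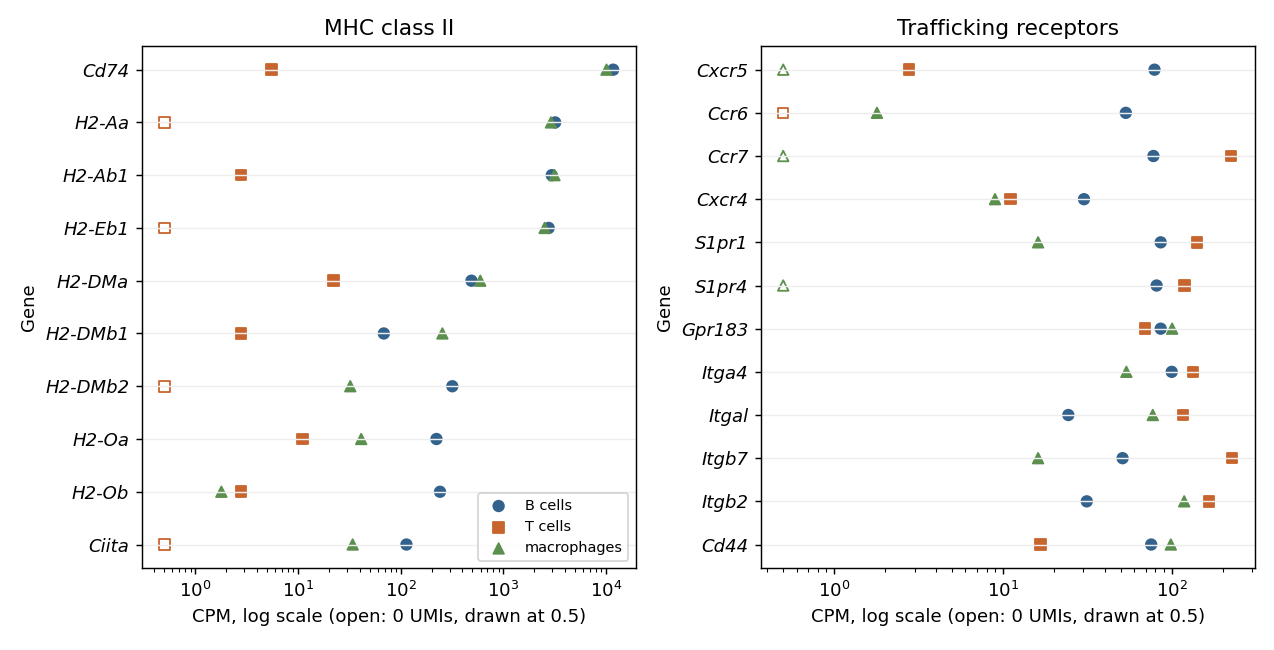
CPM (log scale) of MHC class II genes (left) and trafficking receptors (right) in summed WT B cells (circles), T cells (squares) and macrophages (triangles), with open symbols for 0 UMIs drawn at 0.5. For *Cd74*, *H2-Aa*, *H2-Ab1* and *H2-Eb1* the summed counts of B cells and macrophages lay together, although the medians of single macrophages were lower, and T cells lay above B cells for *Itgal*, *Itgb7* and *Itgb2*.

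Of 14 survival genes 12 were tested against the other barcodes, 9 of them through the B cells alone. *Tnfrsf13b*, the receptor TACI, had 149 CPM in 73 members, and *Tnfrsf17*, the receptor BCMA of plasma cells, 2 UMIs, both in m111. *Bcl2* had 102 CPM in B cells and 255 CPM in T cells, a ratio of 0.401 (0.296 to 0.542), whereas *Mcl1* had 456 and 228 CPM, a ratio of 1.99 (1.57 to 2.57). Of 7 tested activation genes 5 were tested through the B cells alone, and 1, *Ccnd2*, was at least 4 times lower than in the other barcodes relative to the median gene, where 12.2% of all genes were. *Cd69*, an early activation marker, had 65.1 CPM in 26.0% of members, close to 61.1 CPM in T cells and 62.8 CPM in macrophages. *Cd86*, the costimulatory ligand, had 46.5 CPM in 19.9% of members, and *Cd80* and *Il2ra* had 0 UMIs.

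Of 15 tested genes that respond to enzymatic dissociation none was at least 4 times higher than in the other barcodes relative to the median gene and 1, *Egr1*, was at least 4 times lower, at 41.8 against 187 CPM. The shares of all genes on that scale were 9.62% and 12.2%. *Fos* had 122 CPM in B cells, 161 CPM in T cells, 695 CPM in macrophages and 339 CPM in the other barcodes. *Hspa1a* had 210, 230, 596 and 229 CPM in the same order. Against macrophages 6 of 18 were at least 4 times lower, 2 of them tested through the macrophages alone, where 8.16% of all genes were. Of the interferon-response genes, *Isg15* had 8 UMIs and *Ifit1* 2 in all members, *Ifi27l2a* had 226 CPM in B cells, 361 CPM in T cells and 296 CPM in macrophages, and the 24 UMIs of *Rsad2* came from 2 members with 12 each.

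Insulin transcripts were found in every member, at a number that varied little with depth. The members had 46 to 220 UMIs of *Ins1* and *Ins2* together, with a median of 174.5 and quartiles of 160 and 186, while the medians were 171.5 in T cells, 186 in macrophages and 163 in endothelial cells. The ratio of *Ins2* to *Ins1* was 2.83 in B cells, 2.82 in T cells, 2.65 in macrophages and 3.11 in endothelial cells. As a share, insulin took 0.530% to 7.39% of the UMIs of a member with a median of 3.99%. Member m063, with 28730 UMIs, had 177 insulin UMIs, and m111, with 16271 UMIs, had 187. The rule held 6 of the 8 hormone genes low in the members, so their ratios to the other barcodes, to T cells and to macrophages are not read. As a description, *Sst* stood at 105 CPM in B cells and 4530 CPM in macrophages, and *Ppy* at 538 and 2171 CPM. Of the macrophages, 1 barcode held 97.3% of the *Sst* UMIs of its class and 1 held 86.4% of the *Ppy* UMIs. The median macrophage had 2 *Ppy* UMIs and the median B cell 3.

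**Figure D5:**
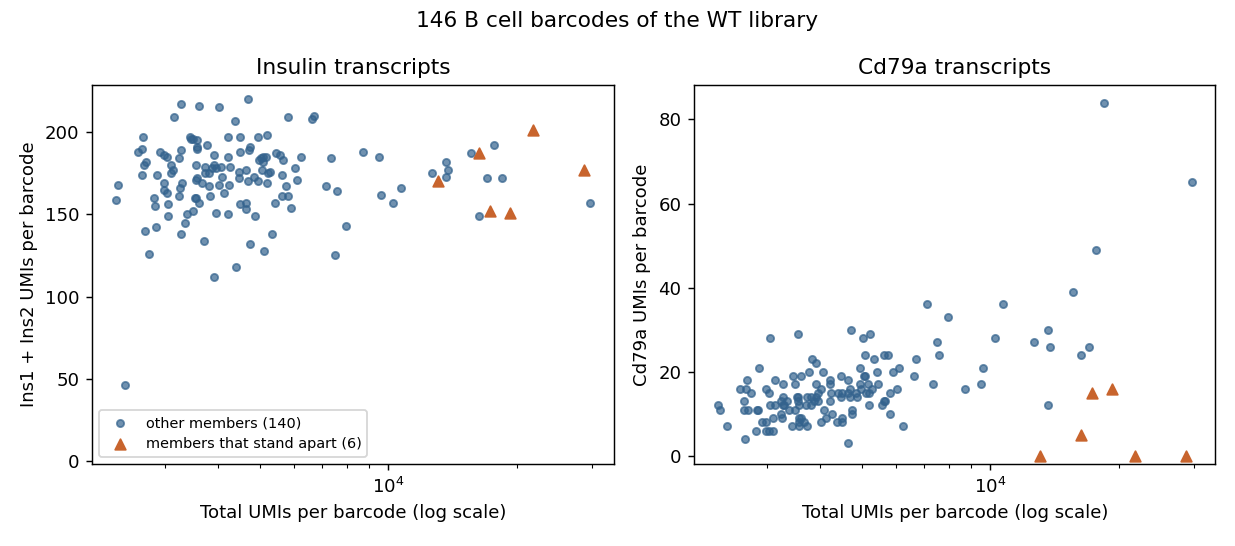
UMIs of *Ins1* with *Ins2* (left) and of *Cd79a* (right) against total UMIs (log scale) for each of the 146 members, with the 6 members that stood apart as triangles. Insulin UMIs lay between 46 and 220 with no slope visible against depth, and the highest *Cd79a* counts, up to 84, were in members with many UMIs, while 3 of the members that stood apart had 0.

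*Igkc* transcripts in turn were rare in endothelial and insulin-rich cells. For a comparison of shares at 1 depth, 2000 UMIs were drawn from each barcode, and 9 WT insulin-rich barcodes fell short of that. *Igkc* was found in 94.5% of B cells (89.5 to 97.6), in 0.903% of WT endothelial cells (0.247 to 2.30) and in 0.656% of WT insulin-rich cells, and the *Npc1*-/- library gave 0 of 451 endothelial cells (0 to 0.815) and 0.163% of insulin-rich cells. Without thinning the shares were 95.2%, 1.81% and 8.16% in WT, and 4.57% in insulin-rich cells of the *Npc1*-/- library. By CPM, *Igkc* stood at 1.77 in WT endothelial cells against 15802 in B cells.

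*Ighm* and *Cd79a* were found more widely. *Ighm* had 247 CPM (198 to 304) in T cells, where 59.1% had a UMI (39.4% after thinning), and 224 CPM (187 to 267) in macrophages, where 77.1% had one (29.2% after thinning), but 0.443 CPM in endothelial cells, while *Igkc* had 2.78, 0 and 1.77 CPM in the same classes. In the *Npc1*-/- library, which had almost no B cells, *Ighm* had 273 CPM in the 33 macrophages and *Igkc* 0. *Ighm* UMIs in T cells and macrophages thus came almost without kappa UMIs, and why was not tested. All 19 barcodes with exactly 2 markers carried *Ighm*. *Cd79a* had 52.8 CPM in WT and 66.2 CPM in *Npc1*-/- insulin-rich cells, 0 UMIs in T cells and macrophages and 0.664 CPM in endothelial cells. After thinning, 9.51% of WT and 11.4% of *Npc1*-/- insulin-rich cells had a *Cd79a* UMI. Without thinning the shares were 39.5% and 42.4%.

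Ribosomal protein genes took 26.9% of the UMIs of B cells, against 31.5% in T cells, 20.4% in macrophages, 12.3% in endothelial cells and 6.72% in all other kept barcodes. Of the 20 genes with the most UMIs outside these and the mitochondrial genes, 7 were antibody, receptor or class II genes (*Igkc*, *Cd74*, *Ighm*, *H2-Aa*, *H2-Ab1*, *Cd79a* and *H2-Eb1*), and 2, *Ins2* and *Ins1*, were insulin. *Tmsb4x*, which binds actin monomers and is abundant in blood cells, had 11765 CPM in B cells, 14887 CPM in T cells and 29611 CPM in macrophages.

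After thinning to 2000 UMIs, 2491 genes had a mean of at least 0.1 UMIs per member, and their median ratio of variance to mean was 1.04. *Igkc* had the highest ratio at 139, followed by *Lyz2* (65.7), *Jchain* (43.6) and *Ighm* (41.4). *Lyz2*, the lysozyme of myeloid cells, had UMIs in 3 members after thinning and *Marco*, a scavenger receptor of macrophages, in 2. *Mgp*, *Sparc*, *Igfbp7* and *Col4a1*, genes of matrix and vessels, were also among the 10 highest. Without the 6 members 4 of the 10 genes remained among the 10 highest, namely *Igkc*, *Iglc2*, *Mgp* and *Sparc*, and *Iglc1*, *Ly6d*, *S100a6*, *Malat1*, *Gcg* and *Ins2* joined them.

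By the same rule the *Npc1*-/- library held 2 B cell barcodes out of 4269 (0.0468%, 0.00567 to 0.169), against 146 of 4628 in WT. The first had 35497 UMIs, 3 markers, all 6 endothelial markers, 9 *Vpreb3* UMIs and 0 *Igkc* and *Cd74* UMIs. The second had 3946 UMIs and all 6 markers, with 35 *Igkc*, 79 *Cd74* and 4 *Vpreb3* UMIs, which makes it the closer of the pair to the WT members by marker number. The number was 28 when 2 markers sufficed and 1 when 4 were required. T cells by rule were 66 in WT and 0 in *Npc1*-/- (0 to 0.0864%, with 3 counts at 0.0703%), whereas macrophages were 48 and 33, endothelial cells 443 and 451, and insulin-rich cells 1839 and 1840. The genotype, the preparation and the tissue taken with the islets each belong to 1 library, so their parts in the difference cannot be told apart.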

How the data were processed

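Single-cell RNA of islets was counted in 1 WT and 1 *Npc1*-/- library. The authors deposited whole-number UMI counts per gene and barcode, and the submitters' processing notes name Cell Ranger 3.1.0, Seurat 4.0.3 and mm10. The labels and the study's methods name different versions of the 3′ kit. The study's limits on genes, UMIs and mitochondrial share were applied again. Its red cell limit does not say which side was kept, and barcodes at or below it were kept here. Unlike in the study, which lists double cells among what it removed, no doublets were removed: Scrublet, run in scanpy 1.11.5, marked 65 WT barcodes (1.40%) and 40 *Npc1*-/- barcodes (0.937%).

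Counts were summed over the members of a class and divided by the class total (CPM), which is not corrected for transcript length. A gene was tested where either class had at least 20 CPM, and called where the ratio, with 0.5 counts added to each sum, passed 4 times. Intervals came from scipy 1.17.1. The scale relative to the median gene was chosen after seeing the data. For shares, barcodes were thinned to 2000 UMIs. Of 31053 gene IDs 31011 matched GENCODE M21 (GRCm38), which gave the positions.

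The members, the gene lists and the genes named were chosen with earlier results of these data known. The rule named the 6 markers, the 20 genes highest in CPM outside ribosomal protein and mitochondrial genes, the 20 highest in ratio, the 10 most variable and, for each list, the 2 to 4 genes with the most UMIs and those at 0. Other list genes, and single members (m001 to m146), were picked out after their values were seen. The 6 members that stood apart had at least 3 macrophage or endothelial markers, at least 5 *Siglech* UMIs or at least 100 *Jchain* UMIs, limits also set after seeing the data. Counts for the B cells over the other WT barcodes were simulated as Poisson draws at a single rate per gene (6401 genes, 200 of them changed 8-fold). The 95% intervals covered the true ratio for 97% of changed genes and 96.0% of the others. In that simulation 100% of raised and 88% of lowered genes were called, and 0.274% of unchanged ones. The intervals assume the same Poisson model, so this coverage was largely set in advance. It does not test genes that vary between barcodes, as *Igkc* did. Other limits on barcodes and markers, added counts, level filters, scalings, folds, light chain limits and depths of thinning were tried. A few genes of the lists are not reported here.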

Additional observations from a re-analysis of the deposited data

Results flagged for a closer look

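Outside the barcodes that the results use, 17 of 3941 WT barcodes that failed a quality limit met the marker, hormone and T cell limits of the B cells, against 0 of 3377 in the *Npc1*-/- library. They were looked at because they carried the B cell signal in data that no comparison used. Of the 17, 9 had too few genes, 8 too high a mitochondrial share, 1 too many UMIs and 1 too many haemoglobin UMIs, and their median was 2663 UMIs. What these barcodes were was not tested.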

How the results depend on the processing

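No paired analysis was possible because each genotype has 1 library. Of 131 alternatives to 26 results, 105 left the value within its interval or its count within 1.5 times. With a mitochondrial limit of 5% the members numbered 22 in WT and 1 in *Npc1*-/-. The *Npc1*-/- number was 28 with at least 2 markers and 1 with at least 4, without barcodes with endothelial or macrophage markers, or without barcodes that stood apart. Against the other WT barcodes the alternatives used the ratio before the correction to the median gene, with 817 genes higher in B cells and 602 lower. None of them was run on the corrected scale. With no level filter 6257 genes were at least 4 times higher in B cells and 1733 lower. The numbers were 523 and 1447 with totals that leave out the hormone genes, and 1944 and 1078 past 2-fold. The number lower was 1291 with a filter of 5 CPM, 293 with 5 added counts and 976 with the mean over cells. Against T cells 995 were higher and 601 lower with the filter of 5 CPM, and 153 higher with 5 added counts. Against macrophages these were 762, 921 and 192. With light chain limits of 90% and 10%, 12.3% of members lay at the kappa end and 82.9% between. Without thinning the share of insulin-rich barcodes with an *Igkc* UMI was 8.16% in WT and 4.57% in *Npc1*-/-. Without the 6 members that stood apart, an alternative added after seeing the data, 4 of the 10 most variable genes remained. The cause was not tested in any of these, beyond the number of genes or barcodes that each limit admits. Depth limits the rest: members held a median of 4258 UMIs, and 3 UMIs over all members would be 3.49 CPM.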

Other observations

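The marker lists of other cell types were also counted in the 146 WT B cells. Of 13 acinar genes 12 had a UMI, with 80 UMIs in 64 members, led by the digestive enzyme gene *Ctrb1*. Of 8 neutrophil genes 6 were at 0, and the other two had 5 UMIs together. Of 7 natural killer cell genes 5 had a UMI, with 13 UMIs in 3 members, led by *Nkg7*. The red cell genes had 28 UMIs, led by *Hbb-bt*. Genes of plasmacytoid dendritic cells had 650 UMIs in 125 members, led by *Irf8*, which B cells also express, while *Siglech* was found in 3 members.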
